A study of Mus musculus with 12 samples.

Results

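The nuclear-encoded subunits of the mitochondrial respiratory chain were followed in mouse liver, across p53 knockout (ko) and p53 wild-type (wt) mice on a high-fat diet (HFD) or a normal diet. Genes were chosen by symbol: Ndufa, Ndufb, Ndufc, Ndufs or Ndufv followed by a digit, Ndufab1, Sdha to Sdhd, all Uqcr genes, and Cox4i1, Cox5a, Cox5b, Cox6a1, Cox6b1, Cox6c, Cox7a2, Cox7b, Cox7c and Cox8a. Of 52636 gene identifiers in the count files, 63 met the rule, and 3 of these were left out because they are annotated as processed pseudogenes. The 3 were Ndufa11b with no count in any library, Ndufb4c with 15 to 50 counts per library and Ndufs6b with 35 to 106 counts per library. The remaining 60 genes comprise 38 of complex I, 4 of complex II, 8 of complex III and 10 of complex IV, and all 60 had enough counts to be tested among 14433 genes. Ndufa4 is counted with complex I by its symbol, although its protein is now assigned to complex IV.

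RNA was sequenced from livers of C57BL/6 mice aged 12 weeks, in 3 libraries each of 4 groups: ko_HFD (p53 ko, HFD), wt_HFD (p53 wt, HFD), ko_normal (p53 ko, normal diet) and wt_normal (p53 wt, normal diet). The labels give neither the allele nor the cell type of the p53 deletion, the composition or length of the diet, nor whether the replicates are separate animals. The p-values therefore rest on differences among libraries that could partly be technical. In whole liver, fewer cells of a type and less RNA per cell cannot be told apart.

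The respiratory chain passes electrons from NADH (complex I) and succinate (complex II) through ubiquinone and complex III to cytochrome c, and complex IV hands them to oxygen. Complexes I, III and IV pump protons, and ATP synthase uses the resulting gradient. Most subunits are encoded in the nucleus, and a small set in complexes I, III and IV is encoded by mitochondrial DNA, so each of those complexes needs the output of both genomes. The hepatocyte relies on this chain to reoxidise the NADH and FADH2 of fatty acid oxidation, and p53 is known for acting on mitochondrial respiration through genes such as Sco2, a complex IV assembly factor.

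The 60 genes are short, abundantly transcribed and scattered over the genome. They lie on 18 chromosomes, with at most 6 on any one and 3 on the X chromosome. Their principal transcripts, in the GENCODE M21 annotation of build GRCm38, had a median length of 870 bases. The summed exon length had a median of 1438 bases over the members, against 4420 bases over the 12671 protein-coding genes tested, and 55 of the 60 lay below that median. Gene positions below come from the same annotation and are not the coordinates used by the authors.

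RefSeq promoter windows on build GRCm38.p6, from 250 bases before to 50 bases after the transcription start, were found for 49 of the 60 genes. CATGCGC, the core of the site of nuclear respiratory factor 1 (NRF1), or its reverse complement GCGCATG, occurred in 10 of the 49 (20.4%), against 4.41% of 27025 genes. CCGGAAG or CTTCCGG, an ETS-family site of the kind bound by GABP (also called NRF2), occurred in 11 (22.4%), against 9.93% of all genes. AAGATGGC or GCCATCTT, the site of YY1, occurred in 7 (14.3%) against 3.19%, and the palindromic cAMP response element TGACGTCA in 4 (8.16%) against 2.03%. At least 1 of these 4 motifs was present in 26 of the 49 windows. TATAAA or TTTATA, the TATA box core, ran the other way, at 4 members (8.16%) against 15.7% of all genes. The median GC content was 59.0% in the members' windows and 52.7% in all windows. These letter matches are descriptions of the windows and do not show binding. The windows below bear on the results that follow, and each holds at least 1 of the listed motifs. Cox6a1 and Cox8a are the liver-type isoforms of complex IV subunits, and Cox8b is the muscle-type counterpart of Cox8a. Ndufb2 and Ndufb7 are the complex I members with the smallest p-values for diet. The windows of Ndufb4, Cox7a2, Cox7c and the muscle isoform Cox7a1, which bear on the results as well, held none of the listed motifs and are not printed. Capitals mark the motifs listed above on either strand. In Cox6a1 the run of capitals near the start of the window holds 2 overlapping matches to the NRF1 core, 1 on each strand.
Cox6a1 promoter, chr5:115348909-115349208, minus strand: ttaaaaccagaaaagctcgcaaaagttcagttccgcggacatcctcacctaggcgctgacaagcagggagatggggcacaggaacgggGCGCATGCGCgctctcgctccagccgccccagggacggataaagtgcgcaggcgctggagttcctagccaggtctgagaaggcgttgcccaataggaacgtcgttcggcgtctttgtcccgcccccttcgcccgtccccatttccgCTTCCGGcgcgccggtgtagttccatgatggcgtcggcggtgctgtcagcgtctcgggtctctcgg
Cox8a promoter, chr19:7217567-7217866, minus strand: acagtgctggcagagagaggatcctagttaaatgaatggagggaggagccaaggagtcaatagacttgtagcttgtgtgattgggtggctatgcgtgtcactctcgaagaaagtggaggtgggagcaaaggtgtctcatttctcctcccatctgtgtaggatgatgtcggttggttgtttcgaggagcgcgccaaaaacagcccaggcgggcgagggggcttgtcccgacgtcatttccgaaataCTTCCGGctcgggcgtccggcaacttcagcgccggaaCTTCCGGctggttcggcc
Cox8b promoter, chr7:140900397-140900696, minus strand: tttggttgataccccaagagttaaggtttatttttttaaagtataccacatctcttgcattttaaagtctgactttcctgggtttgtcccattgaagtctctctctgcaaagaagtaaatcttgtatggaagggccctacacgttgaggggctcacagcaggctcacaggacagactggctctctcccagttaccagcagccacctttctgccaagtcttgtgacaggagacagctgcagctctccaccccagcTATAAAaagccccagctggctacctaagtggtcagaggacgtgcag
Ndufb2 promoter, chr6:39592315-39592614, plus strand: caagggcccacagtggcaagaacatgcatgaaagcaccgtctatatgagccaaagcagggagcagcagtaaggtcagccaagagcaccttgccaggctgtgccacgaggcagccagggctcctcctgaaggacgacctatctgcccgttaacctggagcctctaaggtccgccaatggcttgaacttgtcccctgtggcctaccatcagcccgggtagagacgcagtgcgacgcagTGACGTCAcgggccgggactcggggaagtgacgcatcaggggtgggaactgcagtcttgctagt
Ndufb7 promoter, chr8:83566508-83566807, plus strand: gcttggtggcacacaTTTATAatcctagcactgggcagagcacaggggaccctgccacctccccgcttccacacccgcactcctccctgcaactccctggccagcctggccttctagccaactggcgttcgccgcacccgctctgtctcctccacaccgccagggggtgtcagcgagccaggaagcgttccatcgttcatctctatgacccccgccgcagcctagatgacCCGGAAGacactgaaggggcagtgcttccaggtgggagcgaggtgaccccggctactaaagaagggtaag
The window of Cox8a holds 2 copies of the ETS-type site, whereas the window of Cox8b holds a match to the TATA box core and none of the other 4 motifs. That match begins 4 bases after the annotated start, and the one in Ndufb7 lies 235 bases before it on the reverse strand. Whether either acts as a TATA box was not tested. The window of Ndufb2 holds the cAMP response element.

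Levels per transcript length (RPKM, normalised counts divided by the length of the principal transcript in kilobases) differed widely between subunits that end up in the same complex. Complex IV had the highest median, 528 RPKM, followed by complex III at 376, complex I at 137 and complex II at 69.2 RPKM. Within complex IV, Cox6a1 (ENSMUSG00000041697, chromosome 5, 115345642 to 115348981), the liver-type isoform of subunit VIa, was the highest of the 60 at a mean of 1240 RPKM. Cox5a (ENSMUSG00000000088, chromosome 9, 57521274 to 57532426), a matrix-side subunit, was the lowest of complex IV at 96.0 RPKM. In complex III, Uqcr11, a small membrane subunit, averaged 927 RPKM and Uqcrc2, a core protein on the matrix side, 34.0 RPKM. In complex II, the iron-sulphur subunit Sdhb averaged 188 RPKM and the membrane anchor Sdhc 48.2 RPKM. In complex I, Ndufa4 averaged 696 RPKM and its paralog Ndufa4l2, known for its induction in hypoxia, 2.88 RPKM.

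The order at the top was not fixed beyond the spread. Cox6a1 had 1310 ± 142 RPKM in ko_HFD, 1080 ± 161 in wt_HFD, 1360 ± 73.6 in ko_normal and 1190 ± 187 RPKM in wt_normal (SD, n = 3 each). Cox4i1, the ubiquitous isoform of subunit IV and the second highest member, had 1200 ± 173 RPKM in ko_HFD, 1220 ± 135 in wt_HFD, 1100 ± 45.3 in ko_normal and 1230 ± 153 RPKM in wt_normal. The ranges of both genes over the 12 libraries overlap. The lowest and highest members are separated by far more than the spread, since Ndufa4l2 never exceeded 4.81 RPKM in any library. Per-length levels depend on the annotated transcript: Ndufb2 has a principal transcript of 4371 bases and Sdhc one of 3171 bases, which lowers both values.

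**Figure D1:**
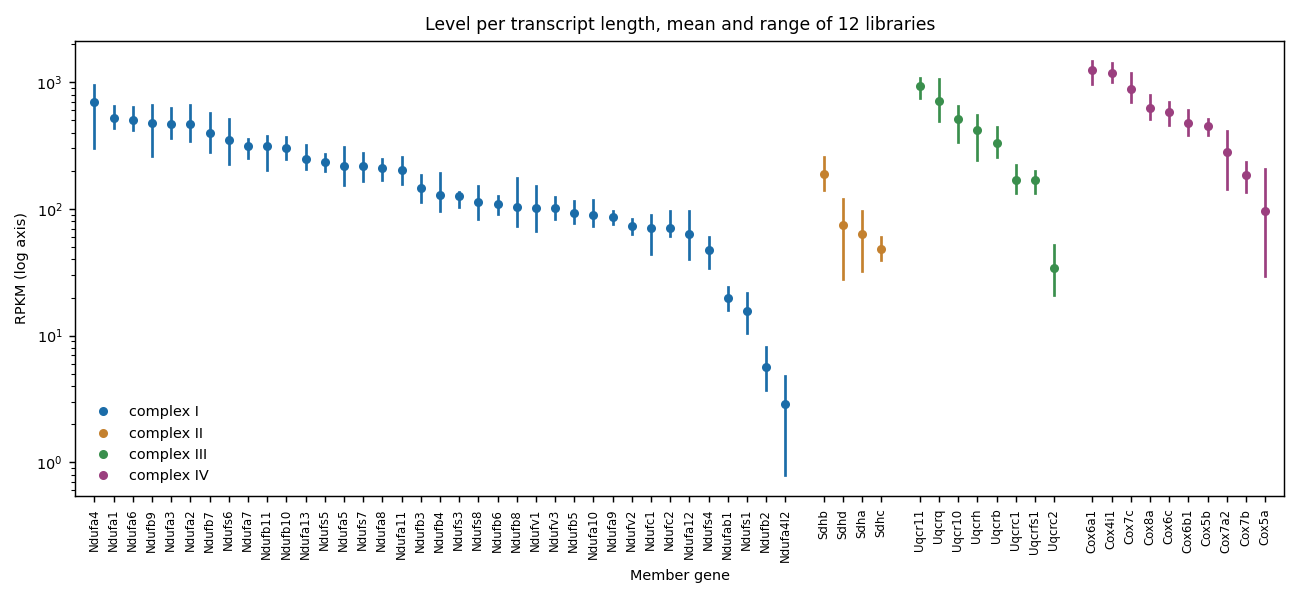
Mean level of 59 of the 60 genes (RPKM, log axis), grouped by complex, with the range over the 12 libraries. Complex IV members lie highest as a group (median 528 RPKM), complex II members lowest (median 69.2 RPKM), and Ndufa4l2 is the lowest of all at 2.88 RPKM.

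The expression of these genes was steady between replicates. The SD of log2 CPM (counts scaled to a common library size) within groups had a median of 0.20 over the members and 0.348 over the 14433 genes tested. Among genes of like abundance (log2 CPM 6.08 to 10.03) the gap was smaller, with a median of 0.194 for the 54 members in that range and 0.253 for the 1621 other genes. In 40 of the 60 genes the highest of the 12 libraries was less than 2 times the lowest. The steadiest were the complex I accessory subunits Ndufa7 (SD 0.105), Ndufa8 (0.106) and Ndufs5 (0.110). The most variable were Ndufa4l2 (SD 0.881), Cox5a (0.719) and Sdhd, the other membrane anchor of complex II (0.547).

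Cox5a shows how far a single subunit could depart from the rest. It had 48.8, 33.4 and 52.4 CPM in ko_HFD, 42.4, 65.4 and 72.4 CPM in wt_HFD, 19.0, 94.8 and 51.7 CPM in ko_normal, and 55.3, 133 and 73.6 CPM in wt_normal, in the order of replicates 1 to 3. The extremes were ko_normal replicate 1 and wt_normal replicate 2, 7.02 times apart. Sdhd had its extremes in the same libraries, with 72.2, 62.9 and 92.5 CPM in ko_HFD, 70.4, 83.8 and 102 CPM in wt_HFD, 34.7, 126 and 95.5 CPM in ko_normal, and 97.6, 146 and 123 CPM in wt_normal.

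The widest departures lay in a few libraries. The summed share of the 60 genes was 1.22% to 1.67% of all counts, highest in wt_normal replicate 2 (1.67%) and next in ko_HFD replicate 2 (1.51%). Library ko_normal replicate 1 was lowest of the 12 for 21 members and had 12 members more than 0.5 log2 units below their mean, led by Cox5a (-1.54), Sdhd (-1.32) and Ndufa4 (-1.16). Its highest member was Ndufb4, 0.61 above its mean. In that library 21.7% of the members lay more than 0.5 log2 units from their mean, next to 35.3% of all genes and 34.2% of the genes of like abundance, so the share of departing genes was no higher among the members than over all genes. The same library had the largest share of mitochondrially encoded reads, 14.6% of its total, followed by ko_HFD replicate 2 with 10.3%, against 4.18% to 7.22% in the other 10 libraries. Library ko_HFD replicate 2 was highest of the 12 for 17 members and wt_normal replicate 2 for 16. The part of these library differences in the results was not tested. Where the change of a single member moved by over 1.5 times, values with 1 library left out are given beside it, though not always for every such library.

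**Figure D2:**
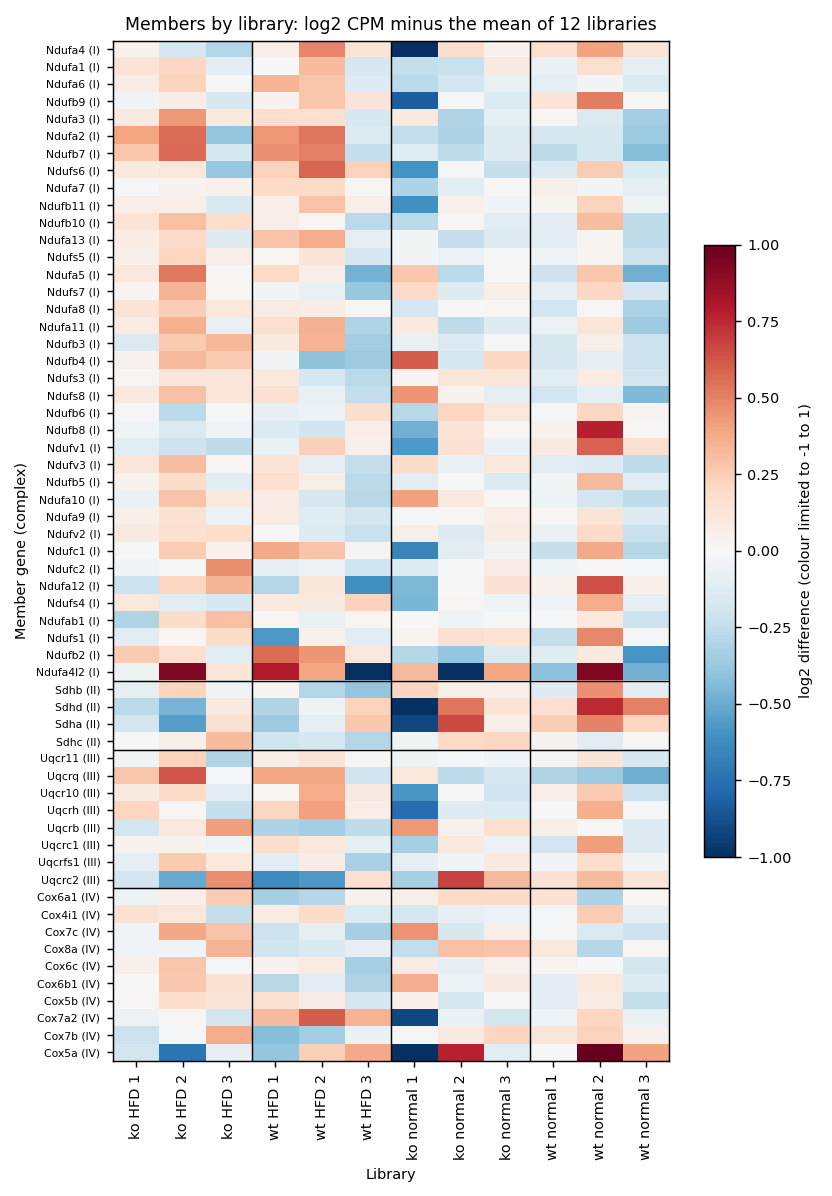
Heat map of 59 of the 60 genes (rows, by complex) in the 12 libraries (columns); colour is log2 CPM minus the gene's mean over the libraries. The lowest value is that of Ndufa4l2 in wt_HFD replicate 3 (-1.55). The column of ko_normal replicate 1 holds Cox5a at -1.54, Sdhd at -1.32 and Ndufa4 at -1.16. The highest value is that of Cox5a in wt_normal replicate 2 (1.26). The colour scale is limited at both ends, so values beyond it look alike.

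Library wt_normal replicate 2 also carried muscle isoforms of complex IV. Cox6a2 had 287 CPM there and at most 0.562 CPM in the other 11 libraries, Cox8b 244 against at most 0.869 CPM, and Cox7a1 179 against 1.26 to 5.03 CPM. The liver-type partners in that library had 563 CPM (Cox6a1), 281 CPM (Cox8a) and 209 CPM (Cox7a2). Of the 12 markers of skeletal muscle, 1 was at 0 in every library, and the 12 summed to 11500 CPM in wt_normal replicate 2 and 3.23 to 14.7 CPM elsewhere. The same library had the highest summed markers of B cells (142 against 4.52 to 11.8 CPM), stellate cells (791 against 81.6 to 228 CPM) and erythroid cells (877 against 158 to 549 CPM). It held the highest value of Cox5a, Sdhd, Ndufv1, Ndufb9, Ndufb8 and Ndufa12.

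**Figure D3:**
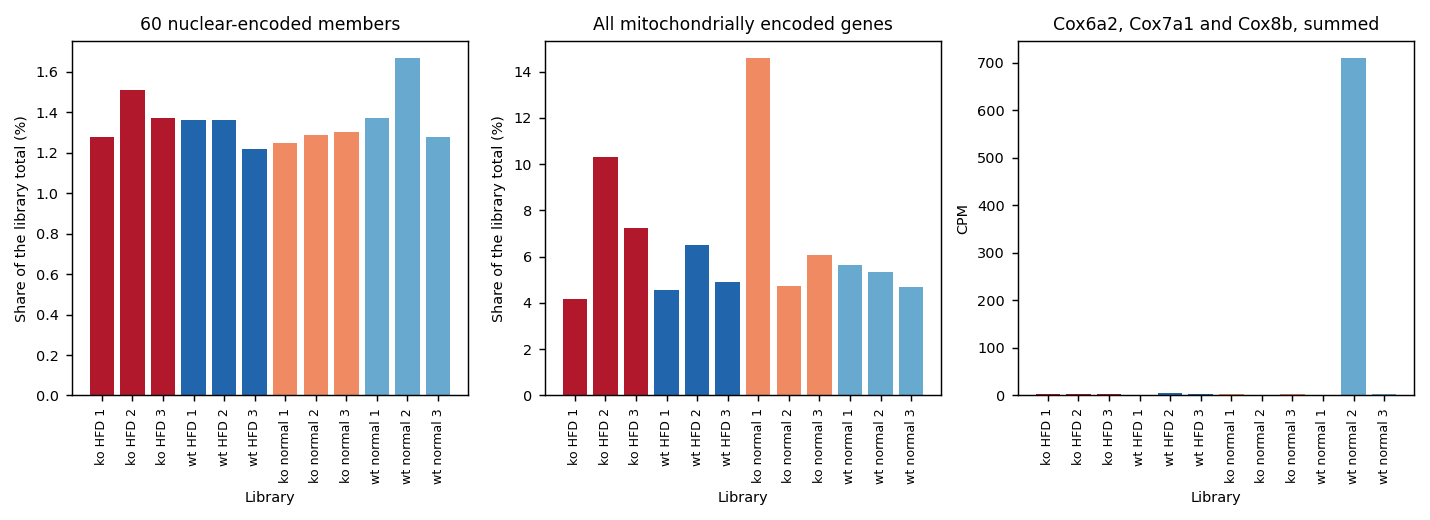
Share of each library's counts in the 60 nuclear-encoded genes (left, %), in all mitochondrially encoded genes (middle, %), and the summed level of the muscle isoforms Cox6a2, Cox7a1 and Cox8b (right, CPM). The nuclear share stays between 1.22% and 1.67%, the mitochondrial share reaches 14.6% in ko_normal replicate 1, and the muscle isoforms sum to 711 CPM in wt_normal replicate 2, against at most 5.55 CPM elsewhere.

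Total counts ran from 15465187 to 20492567 per library. Trp53, the gene encoding p53, had a log2 change of -4.33 in ko against wt livers (SE 0.39, edgeR adjusted p = 0.000411, average of both diets). The 6 hepatocyte markers were all detected, and their sum was 68500 to 76600 CPM in the 6 ko libraries, against 38800 to 51900 CPM in the 6 wt libraries. By gene, 4 of the 6 had a positive change in ko against wt, averaged over diets, with a median of 0.27. Alb, the albumin gene, was called (0.86, SE 0.18, edgeR adjusted p = 0.0391, a call lost in 9 of 12 fits with 1 library left out), while Tat had -0.68 and Cps1 -0.18. All 7 endothelial markers had a negative change, with a median of -0.74, and Lyve1 was called (-1.82, SE 0.35, edgeR adjusted p = 0.0345, a call lost in 7 of those 12 fits). The endothelial sum was 101 to 178 CPM in ko_HFD against 133 to 212 CPM in wt_HFD, and 114 to 172 CPM in ko_normal against 247 to 293 CPM in wt_normal. The part of these markers in the ko comparisons below was not tested.

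Loss of p53, averaged over both diets, changed no member at an adjusted p under 0.05, while 1.16% of all genes tested were called. All adjusted p-values of members are from edgeR's quasi-likelihood test over the 14433 genes. At an unadjusted p under 0.05 there were 12 of 60 members, next to 18.7% of all genes. Of the 12, 7 were higher in ko (9.05% of all genes) and 5 lower (9.66%). DESeq2 called 0 members and 5.96% of all genes. The median log2 change was 0.05 over the members and -0.01 over all genes. For 59 of the 60 genes the 95% interval, unadjusted over members, lay within a 2-fold change in either direction, the exception being Cox5a (-0.54, interval -1.26 to 0.17), and for 46 it lay within 1.5-fold. The Cox5a value was -0.34 without ko_normal replicate 1, -0.31 without wt_normal replicate 2 and -0.86 without ko_normal replicate 2.

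By complex, the median log2 change in ko against wt was 0.02 for complex I (21 of 38 positive), -0.03 for complex II (2 of 4), 0.01 for complex III (4 of 8) and 0.13 for complex IV (7 of 10). With 1 library left out, these medians ran from -0.06 to 0.10 for complex I, -0.13 to 0.05 for complex II, -0.04 to 0.07 for complex III and 0.10 to 0.19 for complex IV. Ndufb4 (ENSMUSG00000022820, chromosome 16, 37647170 to 37654453), an accessory subunit of the membrane arm, had the smallest p of the 60. Its normalised counts were 126, 153 and 147 CPM in ko_HFD against 120, 92.7 and 95.3 CPM in wt_HFD, and 186, 108 and 141 CPM in ko_normal against 109, 114 and 106 CPM in wt_normal. All ko_HFD libraries lay above the wt_HFD libraries, while ko_normal replicate 2 lay among the wt_normal libraries. The averaged log2 change was 0.44 (SE 0.14, adjusted p = 0.127), and 0.30 (adjusted p = 0.34, the highest of its alternatives, which began at 0.0509) without the pair of libraries richest in mitochondrially encoded reads.

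Cox7a2 (ENSMUSG00000032330, chromosome 9, 79755361 to 79759878), the liver-type isoform of subunit VIIa, had the opposite sign. It had 173, 182 and 158 CPM in ko_HFD against 224, 274 and 229 CPM in wt_HFD, and 95.8, 172 and 158 CPM in ko_normal against 175, 209 and 172 CPM in wt_normal. The groups did not overlap on HFD, and on the normal diet ko_normal replicate 2 equalled the lowest wt_normal library at 3 digits. The averaged change was -0.44 (SE 0.15, adjusted p = 0.137). Its neighbour in complex IV, Cox7c, had a change of 0.34 (SE 0.14, adjusted p = 0.201), so the largest values of this complex pointed both ways.

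The core subunits of complex I, among which are the carriers of the flavin and the iron-sulphur clusters, spread on both sides of 0. Ndufv1, which holds the NADH-binding site, had -0.35 (SE 0.14, adjusted p = 0.218), and Ndufs8, an iron-sulphur subunit near the quinone site, had 0.30 (SE 0.13, adjusted p = 0.228). Ndufs1, Ndufs3, Ndufs7 and Ndufv2 lay between 0.11 (Ndufs1) and 0.18 (Ndufs3), and the Ndufs1 value ran from 0.03 without wt_HFD replicate 1 to 0.24 without wt_normal replicate 2. In complex II the membrane anchors differed in sign, with 0.24 for Sdhc (SE 0.11, adjusted p = 0.233) and -0.35 for Sdhd (SE 0.25, adjusted p = 0.486). With ko_normal replicate 2 left out the Sdhd value was -0.54, and with ko_normal replicate 1 left out it was -0.16. It was -0.10 when ko_HFD replicate 2 was left out together with ko_normal replicate 1.

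In complex III, Uqcrb, a small matrix-side subunit, had 154, 188 and 234 CPM in ko_HFD against 141, 138 and 147 CPM in wt_HFD, and 237, 180 and 197 CPM in ko_normal against 182, 175 and 160 CPM in wt_normal. Its ko_HFD libraries lay above all wt_HFD libraries, and the groups overlapped on the normal diet. The averaged change was 0.34 (SE 0.13, adjusted p = 0.168). Uqcrh, the hinge protein that aids the contact with cytochrome c, had -0.34 (SE 0.15, adjusted p = 0.239).

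**Figure D4:**
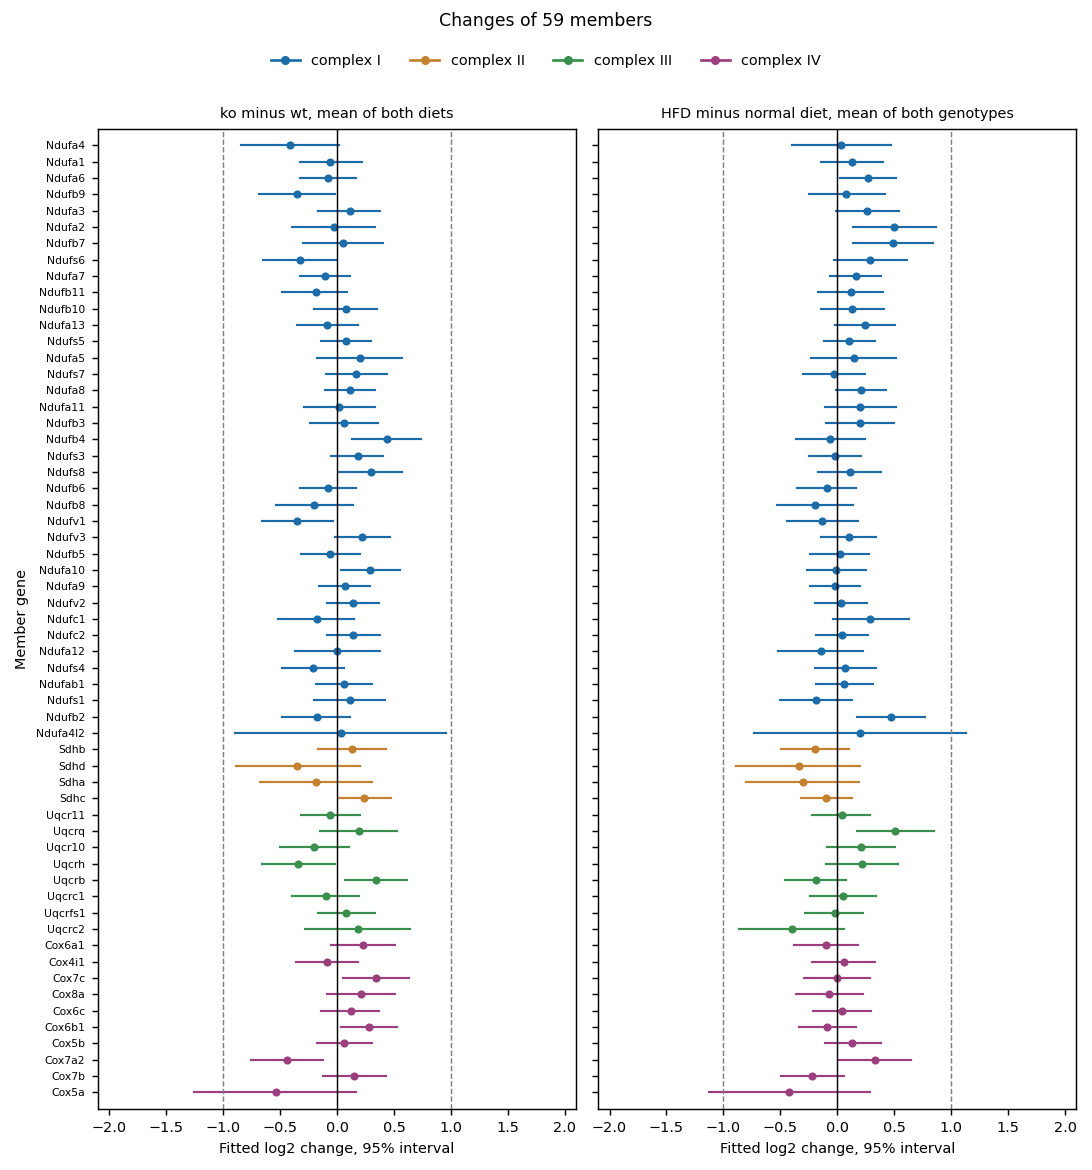
Fitted log2 change of 59 of the 60 genes with its 95% interval, for ko minus wt as the mean of both diets (left) and HFD minus normal diet as the mean of both genotypes (right); dashed lines mark 2-fold. In the left panel the interval of Cox5a alone crosses a dashed line (-1.26 to 0.17), and in the right panel those of Cox5a and Ndufa4l2 do.

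On HFD alone, ko against wt gave no called member (0.0693% of all genes were called), 6 members at an unadjusted p under 0.05 against 8.85% of all genes, and none by DESeq2 (0.658% of all genes). The smallest adjusted p was 0.519, for Uqcrb (log2 change 0.44, SE 0.18), whose change was 0.27 without ko_HFD replicate 3. The ko_HFD libraries lay wholly above the wt_HFD libraries for 11 of 60 members (background 6.70% of all genes) and wholly below for 4 (background 6.85%). The 11 were Ndufa8, Ndufb4, Ndufb10, Ndufc2, Ndufs7, Ndufv2, Sdhc, Uqcrb, Cox6b1, Cox7c and Cox8a. The 4 were Ndufa4, Ndufs6, Cox7a2 and Ndufv1. Ndufb4 had the largest positive change (0.47, SE 0.20, adjusted p = 0.539) and Cox7a2 the largest negative one (-0.50, SE 0.21, adjusted p = 0.525), followed by Cox5a (-0.42, SE 0.47, adjusted p = 0.833). The Cox5a value was -0.25 without ko_HFD replicate 2 and -0.26 without wt_HFD replicate 3.

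On the normal diet, ko against wt gave no called member either (0.208% of all genes were called). At an unadjusted p under 0.05 there was 1 member, Ndufb9, against 15.1% of all genes, and DESeq2 called none (3.67% of all genes). Ndufb9, an accessory subunit of the membrane arm, had 185, 324 and 299 CPM in ko_normal against 359, 468 and 330 CPM in wt_normal, without overlap, although ko_normal replicate 2 and wt_normal replicate 3 were close. Its change was -0.52 (SE 0.22, adjusted p = 0.287), and -0.31 without ko_normal replicate 1 or -0.33 without wt_normal replicate 2. Cox5a had the most negative change, -0.66 (SE 0.47, adjusted p = 0.533), which was -0.25 without ko_normal replicate 1, -0.20 without wt_normal replicate 2 and -1.30 without ko_normal replicate 2. The largest positive changes were those of Ndufb4 (0.40, SE 0.20, adjusted p = 0.358) and Ndufs8 (0.38, SE 0.18, adjusted p = 0.339), and without ko_normal replicate 1 they were 0.19 for Ndufb4 and 0.22 for Ndufs8. Groups did not overlap for 4 members that were higher in ko_normal and 2 that were lower, against a background of 11.4% of all genes in each direction.

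HFD against normal diet, averaged over both genotypes, called no member with edgeR (1.04% of all genes were called), while DESeq2 called 2 of 60 (5.59% of all genes), Uqcrq and Ndufb2. At an unadjusted p under 0.05 there were 6 of 60 members, next to 17.6% of all genes. All 6 were higher on HFD (9.06% of all genes) and none lower (8.55%). The median log2 change was 0.05 over the members and -0.02 over all genes. It was 0.10 for complex I (28 of 38 positive), -0.25 for complex II (0 of 4 positive), 0.04 for complex III (5 of 8) and -0.03 for complex IV (5 of 10). With 1 library left out, the medians ran from 0.07 to 0.16 for complex I, -0.31 to -0.11 for complex II, 0.00 to 0.12 for complex III and -0.04 to 0.01 for complex IV. For 58 of the 60 genes the 95% interval lay within 2-fold, the exceptions being Cox5a and Ndufa4l2, and for 48 within 1.5-fold.

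Ndufb2 (ENSMUSG00000002416, chromosome 6, 39592574 to 39603382), an accessory subunit of the membrane arm, had the smallest p for diet. It had 29.0, 27.2 and 22.4 CPM in ko_HFD against 19.9, 18.5 and 21.9 CPM in ko_normal, and 35.7, 32.9 and 26.2 CPM in wt_HFD against 22.3, 25.9 and 16.1 CPM in wt_normal. Of the 60, only Ndufb2 had its HFD libraries wholly above the normal-diet libraries in each genotype (background 1.52% of all genes), and none had them wholly below (1.53%). The margins were narrow, with 22.4 CPM in ko_HFD against 21.9 CPM in ko_normal, and 26.2 CPM in wt_HFD against 25.9 CPM in wt_normal. The change was 0.47 (SE 0.14, adjusted p = 0.108), and the DESeq2 value was 0.48 (SE 0.16, adjusted p = 0.0381), with adjusted p-values up to 0.247 over all alternatives.

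Uqcrq (ENSMUSG00000044894, chromosome 11, 53427922 to 53430831), a small ubiquinone-binding subunit of complex III, was the most abundant member before correction for length. It had 1270, 1620 and 1030 CPM in ko_HFD against 1130, 873 and 923 CPM in ko_normal, and 1370, 1370 and 911 CPM in wt_HFD against 848, 814 and 746 CPM in wt_normal. All wt_HFD libraries lay above the wt_normal libraries, while ko_HFD replicate 3 lay below ko_normal replicate 1. The change was 0.51 (SE 0.16, adjusted p = 0.126) with edgeR and 0.52 (SE 0.16, adjusted p = 0.0254) with DESeq2, and over all alternatives the adjusted p ran up to 0.243. Uqcrc2, a core protein of the same complex, had the opposite sign (-0.40, SE 0.21, adjusted p = 0.350), at -0.26 without ko_normal replicate 2.

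Ndufb7 (ENSMUSG00000033938, chromosome 8, 83566671 to 83571626), an accessory subunit at the intermembrane face of complex I, had 290, 355 and 212 CPM in ko_HFD against 220, 201 and 219 CPM in ko_normal, and 329, 340 and 202 CPM in wt_HFD against 200, 212 and 177 CPM in wt_normal. Replicate 3 of each HFD group lay within the range of its normal-diet group, and the other 4 HFD libraries lay above. The change was 0.49 (SE 0.16, adjusted p = 0.144). Ndufa2, an accessory subunit of the matrix arm, had 340, 380 and 198 CPM in ko_HFD against 218, 209 and 234 CPM in ko_normal, and 350, 374 and 235 CPM in wt_HFD against 230, 232 and 200 CPM in wt_normal. Its ko_HFD replicate 3 was the lowest of the 12 libraries, the wt groups did not overlap, and the change was 0.50 (SE 0.17, adjusted p = 0.152). In complex IV, Cox7a2 had 0.33 (SE 0.15, adjusted p = 0.271) and Cox7b, a small subunit encoded on the X chromosome, -0.22 (SE 0.13, adjusted p = 0.393). The Cox7a2 value was 0.22 without ko_normal replicate 1, and that of Cox7b was -0.14 without ko_HFD replicate 1.

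Complex II is wholly encoded in the nucleus and shared with the citric acid cycle. Averaged over both genotypes, it was the only complex with all its genes below 0 on HFD, yet none was past the threshold. The changes were -0.30 for the flavoprotein Sdha (SE 0.23, adjusted p = 0.519), -0.20 for Sdhb (SE 0.14, adjusted p = 0.482), -0.10 for Sdhc (SE 0.11, adjusted p = 0.661) and -0.34 for Sdhd (SE 0.25, adjusted p = 0.502). All 4 stayed below 0 with any 1 library left out, but their sizes moved. Without ko_normal replicate 2 the values were -0.08 for Sdha and -0.14 for Sdhd, and without ko_normal replicate 1 they were -0.46 for Sdha and -0.53 for Sdhd. Sdhb had -0.08 without wt_normal replicate 2, and Sdhc -0.06 without ko_HFD replicate 1. Sdhb had 198, 247 and 206 CPM in ko_HFD against 246, 222 and 220 CPM in ko_normal, and 216, 173 and 161 CPM in wt_HFD against 194, 291 and 197 CPM in wt_normal. The groups overlapped in both genotypes. By genotype, all 4 genes of the complex were below 0 on HFD in wt (median -0.34) and 3 of 4 in ko (median -0.13), where Sdhc had 0.01. Without ko_normal replicate 2 the ko values turned to 0.18 for Sdha and 0.23 for Sdhd.

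**Figure D5:**
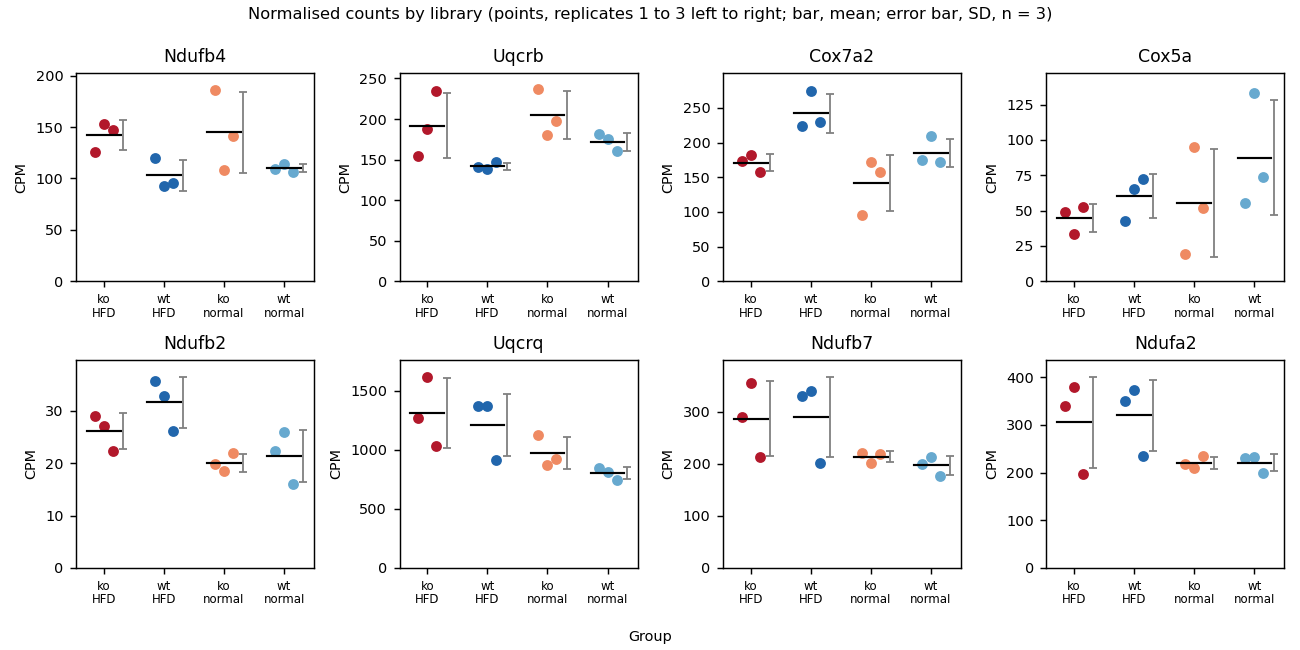
Normalised counts (CPM) of Ndufb4, Uqcrb, Cox7a2, Cox5a, Ndufb2, Uqcrq, Ndufb7 and Ndufa2 by library in ko_HFD, wt_HFD, ko_normal and wt_normal (points, replicates; bar, mean; error bar, SD, n = 3). Ndufb4 and Cox7a2 separate ko_HFD from wt_HFD in opposite directions, and Ndufb2 separates both HFD groups from their normal-diet groups by narrow margins.

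Within ko mice, HFD against normal diet called no gene at all (0.0% of 14433 genes), with 0 members at an unadjusted p under 0.05 against 5.63% of all genes, and none by DESeq2 (0.249% of all genes). The log2 change was positive for 45 of 60 members, with a median of 0.11 against 0.00 over all genes. The ko_HFD libraries lay above all ko_normal libraries for 8 members (background 5.45%) and below for none (background 5.96%). All 8 were complex I subunits: Ndufa3, Ndufa6, Ndufa8, Ndufb2, Ndufb10, Ndufc1, Ndufs5 and Ndufv2. The largest changes were those of Ndufa2 (0.47, SE 0.24, adjusted p = 0.868) and Uqcrq (0.42, SE 0.22, adjusted p = 0.868). Without ko_HFD replicate 2 they were 0.29 for Ndufa2 and 0.24 for Uqcrq, and Ndufa2 had 0.71 without ko_HFD replicate 3. The most negative were those of Cox5a (-0.30, SE 0.47, adjusted p = 0.957) and Uqcrc2 (-0.30, SE 0.30, adjusted p = 0.938). The Cox5a value turned to 0.35 without ko_normal replicate 2, and was -0.13 without ko_HFD replicate 2 and -0.71 without ko_normal replicate 1. The Uqcrc2 value was -0.05 without ko_normal replicate 2 and -0.11 without ko_HFD replicate 2, and -0.61 without ko_HFD replicate 3 and -0.53 without ko_normal replicate 1.

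Within wt mice, HFD against normal diet called no member (0.693% of all genes were called). There were 5 members at an unadjusted p under 0.05 against 17.0% of all genes, 4 of them higher (8.49% of all genes) and 1 lower (8.51%), and none by DESeq2 (4.53% of all genes). The median log2 change was -0.01 over the members and -0.03 over all genes, and it became 0.12 without wt_normal replicate 2. Uqcrq had the largest change (0.60, SE 0.22, adjusted p = 0.204), followed by Ndufb7 (0.56, SE 0.23, adjusted p = 0.236). Cox5a (-0.54, SE 0.47, adjusted p = 0.593) and Sdhd (-0.52, SE 0.36, adjusted p = 0.491) had the most negative, and without wt_normal replicate 2 the values were -0.08 for Cox5a and -0.35 for Sdhd. Cox5a had -0.34 without wt_HFD replicate 1. The groups did not overlap for 4 members higher on HFD (Uqcrq, Ndufa2, Cox7a2 and Ndufb2, background 11.2%) and 4 lower (Cox7b, Uqcrb, Sdhc and Ndufc2, background 10.7%).

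The ko effect on HFD minus that on the normal diet, the interaction of genotype and diet, called no gene (0.0% of 14433 genes), 0 members at an unadjusted p under 0.05 against 5.02% of all genes, and none of the members by DESeq2 (0.104% of all genes). This contrast is the least precise, since only 11 of 60 intervals lay within 1.5-fold and 53 within 2-fold. Its median was 0.10 over the members (46 of 60 positive) and 0.01 over all genes. Ndufa12, an accessory subunit of the matrix arm, had the largest value, 0.72 (SE 0.35, adjusted p = 0.978). It had 59.0, 79.5 and 86.9 CPM in ko_HFD against 56.0, 74.7 and 44.9 CPM in wt_HFD, and 50.3, 68.3 and 75.7 CPM in ko_normal against 70.7, 107 and 71.1 CPM in wt_normal. The groups overlapped on each diet, and the value was 0.47 without wt_normal replicate 2. Ndufa4l2 had 0.42 (SE 0.86, adjusted p = 0.999), which was -0.03 without wt_HFD replicate 3 and -0.21 without wt_normal replicate 2, and ran up to 0.89 without wt_HFD replicate 1. The most negative were Ndufb2 (-0.18, SE 0.27, adjusted p = 0.999) and Uqcrq (-0.18, SE 0.31, adjusted p = 0.999). With 1 library left out, Ndufb2 ran from -0.36 without wt_normal replicate 2 to -0.01 without wt_normal replicate 3, and Uqcrq from -0.36 without ko_HFD replicate 2 to -0.04 without ko_HFD replicate 3. Of the other libraries, ko_HFD replicates 1 and 3 and wt_HFD replicates 1 and 3 moved Ndufb2 by over 1.5 times, and ko_normal replicate 1 and wt_HFD replicates 1 and 3 moved Uqcrq.

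The mitochondrially encoded partners varied widely between libraries. For the 11 subunits of complexes I, III and IV encoded in mitochondrial DNA, the averaged median log2 change in ko against wt was 0.76 with all 11 positive, while that of the 60 nuclear members was 0.05. The median of the 11 was 0.31 without ko_normal replicate 1, and 0.12 with 9 of 11 positive without ko_normal replicate 1 and ko_HFD replicate 2, the libraries richest in mitochondrially encoded reads. The other 4 ko libraries overlapped the 6 wt libraries for 10 of the 11 genes, with 6600 to 8670 CPM of mt-Nd4 in those 4 ko libraries against 6220 to 11700 CPM in wt. The gene without overlap was mt-Nd3. Of the 11, mt-Nd3, a complex I subunit, was called by edgeR (1.16% of all genes), and mt-Nd3 and mt-Nd4l by DESeq2 (5.96%). These were the least abundant of the 11, with 11.5 to 87.1 CPM for mt-Nd3 and 2.62 to 39.3 CPM for mt-Nd4l. In the same libraries mt-Nd4 had 6220 to 18200 CPM. Whether reads of mt-Nd3 and mt-Nd4l were lost or misassigned in mapping and counting was not tested. For mt-Nd3 there were 42.7, 71.9 and 41.7 CPM in ko_HFD against 22.2, 19.6 and 12.6 CPM in wt_HFD, and 87.1, 27.7 and 38.9 CPM in ko_normal against 22.8, 11.6 and 11.5 CPM in wt_normal. Every ko library lay above every wt library, and the change was 1.63 (SE 0.30, adjusted p = 0.0256). The call was lost without ko_HFD replicate 2, ko_normal replicate 3, wt_HFD replicate 2 or 3, or wt_normal replicate 2 or 3 (adjusted p up to 0.0758), and without the libraries with 14.6% and 10.3% mitochondrially encoded reads (1.17, adjusted p = 0.0715). A test of the difference between nuclear and mitochondrially encoded genes was not made.

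Other lists of the same pathway gave few calls. None of 17 ATP synthase genes, of 15, 4, 6 and 18 tested assembly factors of complexes I, II, III and IV, or of 12 regulators of mitochondrial biogenesis was called by edgeR in either averaged comparison. In ko against wt, 9 of these 72 genes had an unadjusted p under 0.05 (18.7% of all genes). For HFD against normal diet there were 12 (17.6%). DESeq2 called 0 and 1 (Cox19, a complex IV assembly factor), next to 5.96% and 5.59% of all genes. The medians of these lists lay between -0.15 and 0.08 in ko against wt, and between -0.17 and 0.19 in HFD against normal diet. Sco2 had no count in any library and gave no value. The annotation used for counting is not given, so these files do not show whether Sco2 was transcribed. Of the 4 tested p53 targets in mitochondria, edgeR called Gls2 on HFD (-1.14, SE 0.22, adjusted p = 0.033), as did DESeq2. The edgeR call was lost in 9 of 12 fits with 1 library left out. In wt mice alone Gls2 had -1.62 on HFD (SE 0.31, edgeR adjusted p = 0.0381). Its change in ko mice alone was also negative and was not called, and edgeR did not call its interaction of genotype and diet. None of the 4 was called in ko against wt, averaged over diets. Ppargc1a, a coactivator that drives transcription of respiratory genes, had a log2 change of -0.69 on HFD (SE 0.25, adjusted p = 0.182). On HFD edgeR called 1 of 77 mitochondrial ribosome genes (1.04% of all genes), and 14 had an unadjusted p under 0.05 (17.6%). DESeq2 called 7 of the 77, Mrpl54 among them (5.59% of all genes). Mrpl54 had 0.51 (SE 0.11, edgeR adjusted p = 0.0435), and with a library left out it stayed past the threshold only without ko_HFD replicate 3 or wt_HFD replicate 3. Cytosolic ribosome genes, also short and abundant, had a median of 0.28 on HFD with 71 of 76 positive. That of the 60 respiratory chain genes was 0.05. On HFD edgeR called 0 of the 76, while 37 had an unadjusted p under 0.05 (17.6% of all genes), and DESeq2 called 12 (5.59%). In ko against wt, edgeR called 1 of the 76 (1.16% of all genes), Rps27a (-0.83, SE 0.16, adjusted p = 0.0327). That call was lost in 8 of 12 fits with 1 library left out. DESeq2 called 3 (5.96% of all genes), Rps27a among them.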

How the data were processed

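RNA from 12 mouse liver libraries was counted per gene, and the deposited files hold whole-number read counts by Ensembl identifier, used as deposited. The tools CASAVA 1.8 and Bowtie 0.12.2 and the builds mm8 and mm9 are named in the submitters' processing notes. Neither the counting tool, the annotation nor the strand setting is given in the sources used here, so reads of near-identical copies, processed pseudogenes and overlapping or antisense genes may be misassigned. Groups and replicate numbers come from the labels. Of 52636 identifiers, 52403 matched a symbol.

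Low counts were removed with filterByExpr, leaving 14433 genes. CPM were scaled by TMM factors, and RPKM divide them by the principal transcript length in GENCODE M21. Differences were tested with edgeR 4.0.16 (quasi-likelihood F-test, 1 fit of 4 groups, 8 residual and 4.66 prior degrees of freedom), in 7 comparisons. The threshold was 0.05 on the p adjusted by Benjamini-Hochberg over all 14433 genes. The 95% intervals are those of single genes. Alternatives were DESeq2 1.42.0, other scalings, no filter, only the groups compared, the replicate block, each library left out, and, chosen after seeing the data, both libraries richest in mitochondrially encoded reads left out together.

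The members and lists were chosen with earlier results of these data known. Genes were named by a rule: any called member, and in averaged comparisons the 2 smallest p per complex. In the other comparisons the 2 highest and 2 lowest changes were named. For levels it took the extremes of each complex, and for variation the 3 most and 3 least variable. Cox6b1, Cox4i1, Ndufa2, Ndufb8 and other members given beyond it were named after their values were seen, as were mt-Nd3's library values and the promoters printed. Of the members, 1 is counted in totals and medians, and its own values are not reported here.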

Additional observations from a re-analysis of the deposited data

How the results depend on the processing

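The count of called members was 0 in every comparison under every alternative, except that DESeq2 called 2 (Uqcrq and Ndufb2) for HFD against normal diet averaged over genotypes. For those genes the log2 change was 0.52 and 0.48 with DESeq2, and edgeR with any 1 library left out gave adjusted p-values of 0.0651 to 0.243 for Uqcrq and 0.0698 to 0.22 for Ndufb2; the cause was not tested. The members' median change moved by more than the spread between libraries (SD 0.114) in 1 case, HFD against normal diet in wt, where leaving out single libraries gave -0.07 to 0.12, the highest without wt_normal replicate 2. Of the 36 values named by comparison, 3 settings turned a sign: Cox5a for diet in ko was 0.35 without ko_normal replicate 2 (range over left-out libraries -0.71 to 0.35), and Ndufa4l2 in the difference of ko effects was -0.03 without wt_HFD replicate 3 and -0.21 without wt_normal replicate 2 (range -0.21 to 0.89). With the replicate block, 0 members were called in every comparison, and the median was 0.06 for ko against wt and 0.05 for diet, each averaged. With the block, the adjusted p was 0.0595 for Mrpl54 in diet and 0.0514 for Alb in ko against wt. The replicate numbers share no stated origin. The correlations of same-numbered libraries ran from -0.209 to 0.332, with 4 of 18 above 0.1. They were not set beside those of differently numbered libraries, so they cannot show whether the numbers pair the libraries. With 3 libraries a group, the 95% interval of Cox5a reached past a 2-fold change in all 7 comparisons and that of Ndufa4l2 in all but ko against wt averaged over diets. At depths of 15465187 counts or more, all 60 members passed the filter.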
